A study of Homo sapiens with 12 samples.

Results

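The 9 interferon-stimulated genes IFIT1, IFIT2, IFIT3, ISG15, MX1, OAS1, IRF1, IRF9 and IFI6 were followed in cancer tissue grown under perfusion in the AngioPlate. They were chosen by symbol, all 9 were found among the 58735 genes of the deposited count table, and all 9 were among the 17468 genes that passed the low-count filter. The cancer tissue was the GFP-positive human breast cancer line MDA-MB-231 in fibrin gel in every group. In the hepatic co-culture it shared the device with tissue of HepG2, a hepatoblastoma-derived line, mixed with 2% lung fibroblasts. In the cardiac co-culture it shared the device with iPSC-derived cardiomyocytes mixed with 2% cardiac fibroblasts, and in monoculture it had no partner tissue. Each group had 4 libraries, made from RNA of the cancer tissue 5 days after the cancer cells were seeded. The series calls them biological replicates but does not tie them to separate cultures or days. The p-values therefore reflect how far these libraries spread, which may be technical in part.

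Interferons signal through paired receptors and JAK kinases to transcription factors of the STAT family. STAT2 and IRF9 are subunits of ISGF3, which binds interferon-stimulated response elements in the promoters of antiviral genes, whereas STAT dimers bind gamma-activated sites. Cancer cells can keep a basal level of these genes without added interferon, and the genes are also used to read inflammatory signals between neighbouring tissues.

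Of the 9 genes, 8 had promoter sequences in RefSeq (GRCh38.p14), in 11 windows of 300 bases around annotated start sites. The 5 below are shown because they set the 2 elements apart: IFIT1, IFIT3, ISG15 and IFI6 hold the response element, and IRF1 holds the gamma-activated site. Capitals mark the response element, searched as GAAA, any 2 bases, GAAA, or the gamma-activated site, searched as TTCNNNGAA, both on either strand (on the opposite strand the response element reads TTTC, any 2 bases, TTTC). The windows lie at chr10:89392373-89392672 (IFIT1, plus strand), chr10:89327747-89328046 (IFIT3, plus), chr1:1013247-1013546 (ISG15, plus), chr1:27672143-27672442 (IFI6, minus) and chr5:132490724-132491023 (IRF1, minus), each read 5′ to 3′ along its gene.
IFIT1: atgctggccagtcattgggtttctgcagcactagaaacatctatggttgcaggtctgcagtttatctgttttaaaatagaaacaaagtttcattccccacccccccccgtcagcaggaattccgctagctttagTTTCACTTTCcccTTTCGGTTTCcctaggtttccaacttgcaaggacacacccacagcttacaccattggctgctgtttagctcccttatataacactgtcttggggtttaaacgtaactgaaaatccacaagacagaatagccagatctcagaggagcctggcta
IFIT3: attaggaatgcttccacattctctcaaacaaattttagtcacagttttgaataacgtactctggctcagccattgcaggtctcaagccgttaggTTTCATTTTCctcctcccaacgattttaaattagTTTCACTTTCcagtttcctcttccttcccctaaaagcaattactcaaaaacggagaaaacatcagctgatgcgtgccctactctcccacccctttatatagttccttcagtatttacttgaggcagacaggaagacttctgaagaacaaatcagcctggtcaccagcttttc
ISG15: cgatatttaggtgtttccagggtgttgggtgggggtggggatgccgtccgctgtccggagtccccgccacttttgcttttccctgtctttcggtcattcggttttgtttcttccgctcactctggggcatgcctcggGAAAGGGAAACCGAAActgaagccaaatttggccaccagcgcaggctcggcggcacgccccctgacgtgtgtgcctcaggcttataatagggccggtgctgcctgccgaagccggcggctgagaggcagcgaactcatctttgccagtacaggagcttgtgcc
IFI6: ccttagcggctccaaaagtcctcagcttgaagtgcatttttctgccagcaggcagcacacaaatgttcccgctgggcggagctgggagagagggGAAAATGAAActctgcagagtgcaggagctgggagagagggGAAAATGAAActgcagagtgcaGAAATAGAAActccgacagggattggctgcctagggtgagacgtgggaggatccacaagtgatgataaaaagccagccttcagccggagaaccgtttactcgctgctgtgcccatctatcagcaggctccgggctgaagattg
IRF1: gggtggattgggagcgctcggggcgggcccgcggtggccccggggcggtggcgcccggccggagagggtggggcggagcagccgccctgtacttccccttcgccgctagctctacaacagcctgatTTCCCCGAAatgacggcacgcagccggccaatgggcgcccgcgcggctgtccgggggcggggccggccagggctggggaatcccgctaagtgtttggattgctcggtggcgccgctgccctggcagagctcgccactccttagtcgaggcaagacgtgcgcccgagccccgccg

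The response element was present in 7 of the 11 windows, from 5 genes (IFIT1, IFIT3, ISG15, MX1 and IFI6), against 3.57% of the 35116 promoter windows in the table. IFIT1 held 2 copies, starting 116 and 103 bases before the start site. ISG15 held 2 overlapping copies, at 113 and 107 bases, and IFI6 held 3, at 156, 115 and 93 bases. A narrower form, GAAAC, any 1 base, GAAA, which is counted within the response element, was present for IFIT1, IFIT3, ISG15 and MX1 and in 0.763% of all windows. TTCNNNGAA was present in 1 window each of IRF1, IRF9, MX1 and OAS1 and in 7.66% of all windows. In 1 MX1 window it overlapped the response element. The search requires 2 bases between the GAAA repeats, so GAAACGAAA in the OAS1 window, with 1 base between them, was not counted. These matches describe letters in a window and were not tested as binding sites.

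The IFIT genes encode tetratricopeptide-repeat proteins that bind viral RNA, and lie together on chromosome 10 within 122793 bases (GRCh38, 89283694 to 89406486), on the plus strand. ISG15, a ubiquitin-like protein that is conjugated to other proteins, lies at chr1:1001138-1014540 on the plus strand. MX1 (chr21:41420304-41459214) encodes a dynamin-like antiviral GTPase, and OAS1 (chr12:112906777-112933222) the synthase of the oligoadenylates that activate RNase L. IRF1 (chr5:132481609-132490798, minus strand) encodes a transcription factor and IRF9 (chr14:24161053-24166565) the DNA-binding subunit of ISGF3. IFI6 (chr1:27666061-27672218, minus strand) encodes a small membrane protein with antiviral and anti-apoptotic roles. IRF9 shared 48.4% of its exon bases with AL136295.5 on the same strand, so reads from those stretches cannot be assigned to 1 gene. IRF1 shared 22.0% with C5orf56 on the opposite strand. Reads there can be assigned to 1 gene only by stranded counting, and the strandedness is not stated. IFIT1, IFIT2 and IFIT3 lie inside the span of LIPA, on the opposite strand, but only 65 exon bases of IFIT2 are shared with it.

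Library totals were 26.2 to 42.4 M counts (M for 1e6) in the hepatic co-culture, 27.0 to 37.4 M in the cardiac co-culture and 35.0 to 42.0 M in monoculture. The 8 markers of the cancer line summed to 3343 to 3669 CPM in hepatic, 3203 to 3394 CPM in cardiac and 3504 to 3685 CPM in monoculture libraries. Against monoculture, 1 of the 8 rose (VIM) and 4 fell (KRT7, CAV1, KRT8 and EGFR) in the hepatic co-culture, and 0 rose and 2 fell in the cardiac co-culture. For these and the marker lists below, the background is all tested genes. Of those 14.4% rose and 13.6% fell in the hepatic co-culture, and 4.93% and 3.33% in the cardiac one. CPM are counts per 1e6 counts after TMM scaling. CLEC4C, the marker of plasmacytoid dendritic cells, a main source of interferon in blood, was at 0 in all 12 libraries. The 8 leukocyte markers, of which CLEC4C was the 1 at 0 in all 12 libraries, summed to 4.45 to 9.70 CPM in hepatic, 9.55 to 14.2 CPM in cardiac and 4.10 to 11.7 CPM in monoculture libraries. The 10 hepatocyte markers, with APOA2 at 0 in all libraries, summed to 34.6 to 58.5 CPM in hepatic, 69.7 to 95.7 CPM in cardiac and 42.2 to 74.4 CPM in monoculture libraries. These sums rest mainly on SERPINA1, the only 1 of the 10 that passed the low-count filter. The others, ALB among them with at most 14 counts, had at most 22 counts in any library. The 10 cardiomyocyte markers summed to 0.776 to 2.10 CPM in hepatic, 1.28 to 4.26 CPM in cardiac and 2.30 to 3.23 CPM in monoculture libraries. The cardiac myosins MYH6 and MYL7 had 21 and 8 counts in cardiac replicate 4, and no other library held a count of either. Over the whole list that library summed to 4.26 CPM and cardiac replicate 3 to 3.88 CPM. Of the 10 cardiomyocyte markers only RYR2 passed the low-count filter, and monoculture libraries, without cardiac tissue, already summed to 2.30 to 3.23 CPM. The 9 fibroblast markers, with THY1 and POSTN at 0 in all libraries, summed to 11.2 to 23.8 CPM in hepatic, 12.3 to 12.9 CPM in cardiac and 9.91 to 16.7 CPM in monoculture libraries. Of 6 tested, 2 rose and 1 fell in the hepatic co-culture (DCN by -3.10 on the log2 scale), and none passed in the cardiac one. Without cardiac replicate 4, COL1A1, COL1A2 and COL3A1 rose (0.52, 1.54 and 2.83) and DCN fell (-3.11) in the hepatic co-culture. In that fit 1 fell in the cardiac one. The 6 endothelial markers summed to at most 25.6 CPM in hepatic, 16.7 CPM in cardiac and 18.9 CPM in monoculture libraries, and of 4 tested VWF rose (2.26) and KDR fell (-1.34) in the hepatic co-culture, while VWF rose in the cardiac one (1.44). The part of these levels in the results was not tested. Cardiac replicate 4 stood apart in the interferon genes, so the cardiac results of the 9 genes are also given without it.

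Per length, in transcripts per 1e6 transcripts (TPM), the 9 genes covered a wide range of levels, and the order of the 7 most abundant was the same in the 3 groups. ISG15 was the most abundant at 196 ± 38.5 TPM in hepatic, 214 ± 81.7 TPM in cardiac and 308 ± 37.2 TPM in monoculture libraries (mean ± SD, n = 4 each). IFIT3 followed at 127 ± 19.0, 167 ± 64.7 and 239 ± 48.7 TPM in hepatic, cardiac and monoculture libraries. In monoculture its range, 187 to 299 TPM, overlapped that of ISG15 above it (278 to 358 TPM) and that of IFIT2 below it (168 to 208 TPM).

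IFIT1 averaged 72.7 ± 23.4 TPM in hepatic, 69.7 ± 22.4 TPM in cardiac and 119 ± 15.8 TPM in monoculture libraries. IFI6 averaged 42.8 ± 6.12, 52.9 ± 21.9 and 44.9 ± 4.26 TPM, and IRF1 10.1 ± 1.78, 13.5 ± 1.97 and 14.5 ± 2.24 TPM, in hepatic, cardiac and monoculture libraries. From IFIT2 down to IRF9, no neighbours in the monoculture order overlapped. OAS1 lay at 3.13 to 3.29 TPM in the group means. MX1 and IRF9 were the lowest and changed places: the means were 1.41 TPM for MX1 and 1.57 TPM for IRF9 in hepatic, 1.84 and 2.11 TPM in cardiac, and 2.09 and 1.15 TPM in monoculture libraries. The TPM of IRF9 uses its full exon length, of which 48.4% is shared with AL136295.5. If reads from the shared stretches were left uncounted, its TPM is too low, so its place in the order is uncertain.

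Hepatic co-culture was first set against monoculture. IFIT3 and IRF1 fell, IFIT1, IFIT2, ISG15 and MX1 had lower means without passing the adjusted threshold, and OAS1 and IFI6 had nearly equal means. By edgeR's quasi-likelihood test 2 of 9 genes passed as lower and 0 as higher at an adjusted p of 0.05. Of all tested genes 28.0% passed in this comparison, 13.6% as lower and 14.4% as higher, so the count of calls is close to the background. At an unadjusted p under 0.05, 6 of 9 were lower and 0 higher, against 19.0% lower and 19.9% higher of all tested genes, 38.9% in all. In 5 of 9 genes every hepatic library lay below every monoculture library, and in 0 every hepatic library lay above. Of all tested genes, 15.4% separated completely as lower and 15.1% as higher, 30.5% in all. The median log2 fold change was -0.49 over the 9 genes and 0.01 over all genes tested. In bulk RNA, fewer cells that express a gene and less RNA per cell cannot be told apart.

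IFIT3 had 77.0, 102, 89.4 and 95.3 CPM in hepatic replicates 1 to 4, against 145, 129, 205 and 172 CPM in monoculture. All hepatic libraries lay below all monoculture libraries. The log2 fold change was -0.84 ± 0.24 (SE, adjusted p = 0.0269), or 1.79-fold lower in the hepatic co-culture. IRF1 had 26.5, 16.2, 20.1 and 23.5 CPM in hepatic libraries, against 28.6, 25.4, 35.7 and 26.8 CPM in monoculture. Hepatic replicate 1 overlapped the monoculture range, and the log2 fold change was -0.44 ± 0.14 (adjusted p = 0.0310). Both calls depended on single libraries. The adjusted p of IFIT3 became 0.0757, 0.0649, 0.0519, 0.0759 and 0.0629 without hepatic replicates 1, 3 and 4 and monoculture replicates 3 and 4, and that of IRF1 0.0909, 0.0868 and 0.105 without hepatic replicates 2 and 3 and monoculture replicate 3.

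IFIT1 had 52.8, 110.1, 90.4 and 109 CPM in hepatic libraries, against 138, 122, 167 and 141 CPM in monoculture, and the groups did not overlap. Its log2 fold change was -0.65 ± 0.27 (adjusted p = 0.103). IFIT2 had 88.0, 165, 126 and 146 CPM in hepatic libraries, against 181, 180.3, 221 and 194 CPM in monoculture, again without overlap. Hepatic replicate 1 was the lowest library for IFIT1, IFIT2 and IFIT3. IFIT2 differed by -0.56 ± 0.22 (adjusted p = 0.0793) and was called without hepatic replicate 2 (adjusted p = 0.0471), by DESeq2 (0.0490) and in the fit of only the 8 hepatic and monoculture libraries (0.0454).

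ISG15 had 43.3, 61.0, 42.7 and 53.3 CPM in hepatic libraries, against 67.0, 69.1, 87.5 and 75.5 CPM in monoculture. The groups did not overlap, and the log2 fold change was -0.58 ± 0.23 (adjusted p = 0.0859, and 0.00286 in the fit of only these 8 libraries). MX1 had 3.14, 3.31, 3.49 and 3.29 CPM in hepatic libraries, against 4.48, 3.91, 5.86 and 4.39 CPM in monoculture. The hepatic libraries were closely spaced and all lower, with a log2 fold change of -0.50 ± 0.21 (adjusted p = 0.0938).

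The other 3 genes overlapped between the groups. IFI6 had 12.5, 10.2, 9.86 and 8.03 CPM in hepatic libraries, against 10.2, 11.2, 10.04 and 8.72 CPM in monoculture, a log2 difference of 0.01 with a 95% interval of -0.45 to 0.48. OAS1 lay between 3.36 and 4.80 CPM in hepatic and between 3.79 and 4.49 CPM in monoculture libraries, a difference of 0.05 (-0.33 to 0.43). IRF9 had 1.31, 1.46, 2.16 and 1.53 CPM in hepatic libraries, against 0.72, 1.51, 0.92 and 1.36 CPM in monoculture, a difference of 0.52 ± 0.30 (adjusted p = 0.219). It rested on 37 to 63 counts in a hepatic library and 26 to 59 in a monoculture library.

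**Figure D1:**
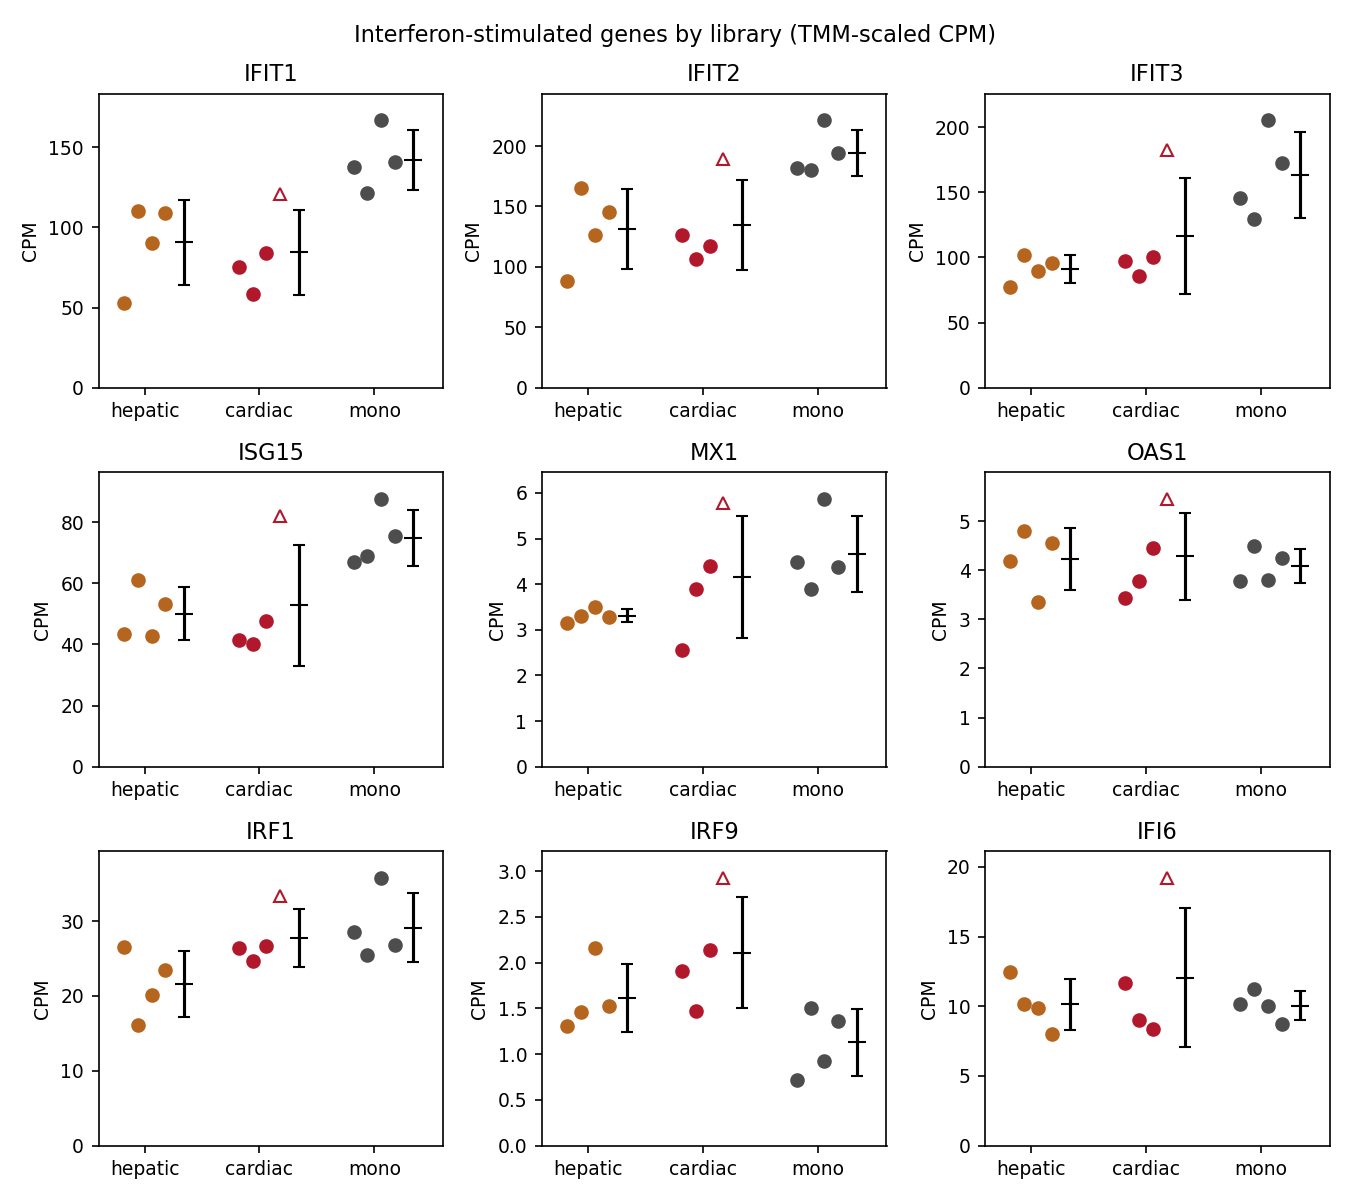
TMM-scaled CPM of the 9 genes in each library of the hepatic co-culture, cardiac co-culture and monoculture, with the mean and SD of each group as a bar beside the points (n = 4). The open triangle is cardiac replicate 4, which is the highest cardiac library in all 9 panels.

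Cardiac co-culture was next set against the same monoculture libraries, so its fold changes share those controls with the hepatic ones. No member passed the adjusted threshold in this comparison, in either direction. At an unadjusted p under 0.05, 2 were lower (IFIT1 and IFIT2) and 1 was higher (IRF9), and DESeq2 called 2 (IFIT1 as lower and IRF9 as higher). Over all tested genes 25.7% had an unadjusted p under 0.05, 11.9% as lower and 13.8% as higher. Of all tested genes 8.26% were called, 3.33% as lower and 4.93% as higher. The groups did not overlap for 1 of 9 genes, IFIT1, which was lower. Of all tested genes 15.2% separated completely, 7.47% as lower and 7.77% as higher. The median log2 fold change was -0.16 over the 9 genes, -0.36 without cardiac replicate 4, and 0.01 over all tested genes in both fits.

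IFIT1 had 75.4, 58.3, 83.9 and 121 CPM in cardiac replicates 1 to 4, against 138, 122, 167 and 141 CPM in monoculture. All 4 cardiac libraries were lower, with replicate 4 just below the lowest monoculture library, and the log2 fold change was -0.74 ± 0.27 (adjusted p = 0.117). IFIT2 had 126, 106, 117 and 189 CPM in cardiac libraries, against 181, 180.3, 221 and 194 CPM in monoculture, a difference of -0.53 ± 0.22 (adjusted p = 0.158). IFIT3 had 97.4, 85.6, 100.3 and 182 CPM in cardiac libraries, against 145, 129, 205 and 172 CPM in monoculture. Its log2 fold change was -0.49 ± 0.24 (adjusted p = 0.237). For IFIT2 and IFIT3 replicates 1 to 3 lay below every monoculture library, and replicate 4 lay inside the monoculture range.

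ISG15 had the same arrangement, with 41.4, 40.1, 47.7 and 82.2 CPM in cardiac libraries, against 67.0, 69.1, 87.5 and 75.5 CPM in monoculture (log2 fold change -0.50 ± 0.23, adjusted p = 0.200). MX1 had 2.57, 3.89, 4.40 and 5.79 CPM in cardiac libraries, against 4.48, 3.91, 5.86 and 4.39 CPM in monoculture, and the groups overlapped (-0.16 ± 0.21, adjusted p = 0.692). IRF9 went the other way, with 1.91, 1.47, 2.14 and 2.92 CPM in cardiac libraries, against 0.72, 1.51, 0.92 and 1.36 CPM in monoculture. Only cardiac replicate 2 fell inside the monoculture range, and the difference was 0.91 ± 0.30 (adjusted p = 0.0642). Without monoculture replicate 2 IRF9 was called (1.08, adjusted p = 0.0483).

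IRF1, OAS1 and IFI6 overlapped between cardiac and monoculture libraries. IRF1 had 26.4, 24.7, 26.6 and 33.4 CPM in cardiac libraries, a difference of -0.07 ± 0.14. IFI6 had 11.7, 9.03, 8.36 and 19.2 CPM in cardiac libraries, so replicate 4 was above every monoculture library and the others were near them (0.27 ± 0.22). OAS1 ranged from 3.45 to 5.45 CPM (0.07 ± 0.18).

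Cardiac replicate 4 was the highest cardiac library for all 9 genes, at 1.29 to 1.98 times the mean of replicates 1 to 3. It lay within the monoculture range for 5 of the 9 genes and above it for 3. Replicates 1 to 3 lay below all monoculture libraries for 4 genes: IFIT1, IFIT2, IFIT3 and ISG15. The shares of all tested genes with these arrangements were not counted. The fit was repeated without cardiac replicate 4, a choice made after the data were seen. There 4 of 9 genes were called as lower against monoculture and 0 as higher. In that fit 19.1% of all tested genes were called, 9.16% as lower and 9.90% as higher, against 8.26% with all libraries. The 4 were IFIT1 (-0.97 ± 0.26, adjusted p = 0.0310), IFIT2 (-0.74 ± 0.18, adjusted p = 0.0196), IFIT3 (-0.79 ± 0.14, adjusted p = 0.00322) and ISG15 (-0.80 ± 0.13, adjusted p = 7.8e-04). IRF9 differed by 0.71 ± 0.32 there (adjusted p = 0.131), MX1 by -0.36 ± 0.21 (0.252) and IRF1 by -0.17 ± 0.14 (0.449). IFI6 and OAS1 turned sign, to -0.05 ± 0.16 and -0.07 ± 0.19.

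The same refit changed the hepatic comparison through the shared estimate of the spread. There 4 of 9 genes were called as lower, IFIT2, IFIT3, ISG15 and IRF1, when 31.2% of all tested genes were called, 15.6% as lower and 15.5% as higher. The hepatic values of IFIT3 and ISG15 were then -0.85 ± 0.13 and -0.58 ± 0.11 (adjusted p = 4.4e-04 and 0.00117), close to those with all libraries.

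**Figure D2:**
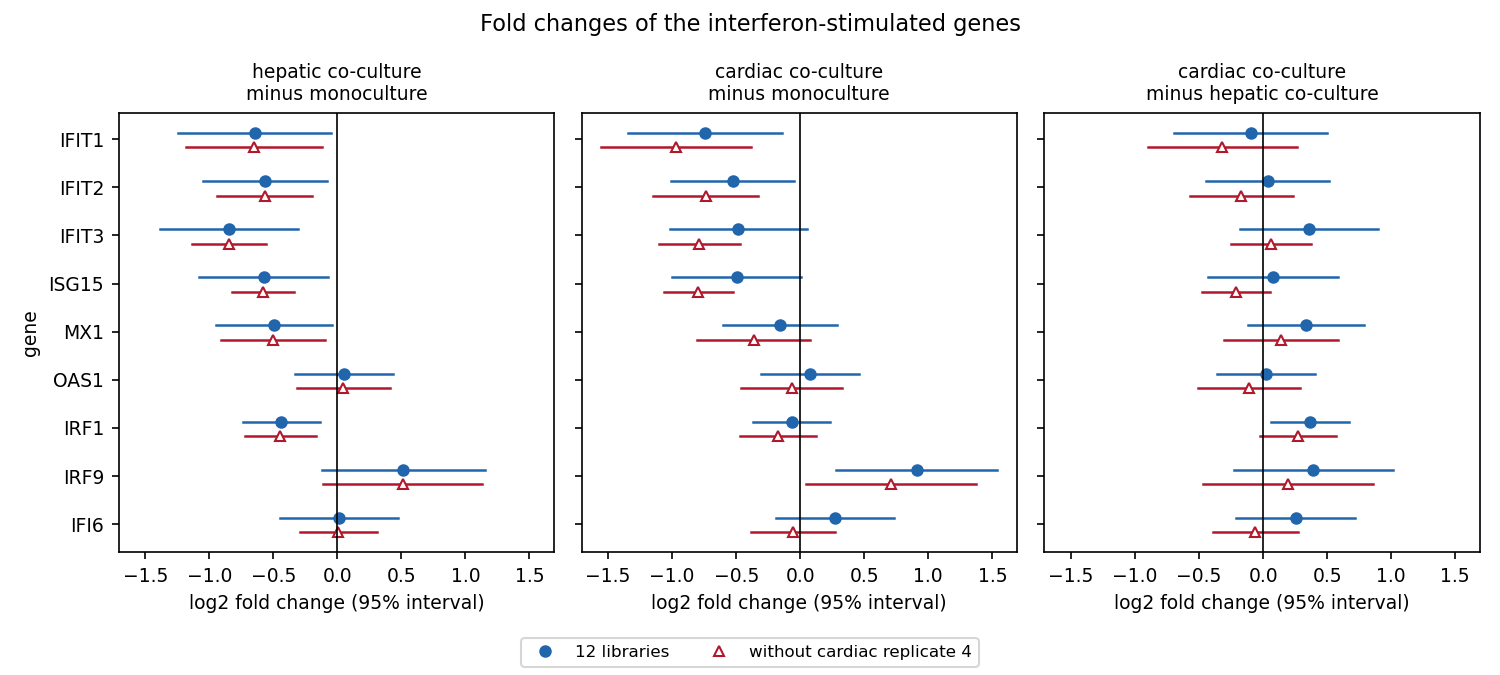
Log2 fold changes of the 9 genes in the 3 comparisons, with 95% intervals, from the fit over 12 libraries (filled circles) and the fit without cardiac replicate 4 (open triangles). Without that library the cardiac intervals of IFIT1, IFIT2, IFIT3 and ISG15 move further below 0, and the hepatic values stay where they were.

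Cardiac and hepatic co-culture were then set against each other directly. No member passed the adjusted threshold in either direction, while 6.18% of all tested genes did, 2.91% as lower and 3.27% as higher, and 1 of 9 (IRF1) had an unadjusted p under 0.05, against 20.5% of all tested genes, 10.2% as lower and 10.4% as higher. DESeq2 called 0. The median log2 difference over the 9 genes was 0.25, and -0.06 without cardiac replicate 4. IRF1 averaged 27.8 ± 3.86 CPM in cardiac and 21.6 ± 4.46 CPM in hepatic libraries (log2 difference 0.37 ± 0.14, adjusted p = 0.148). None of the 9 separated these 2 groups completely, against 11.9% of all tested genes, 5.92% as lower. The intervals still allow sizeable differences, from -0.70 to 0.50 for IFIT1 and from -0.18 to 0.89 for IFIT3. Without cardiac replicate 4 IRF1 differed by 0.27 (-0.02 to 0.57), IFIT3 by 0.06 (-0.25 to 0.37) and ISG15 by -0.21 (-0.48 to 0.05). In that fit again 0 of 9 were called, and 4.79% of all tested genes, 2.18% as lower and 2.61% as higher.

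Within the 9 genes, IFIT1, IFIT2, IFIT3 and ISG15 varied together. Over 12 libraries, which share depth and scaling, Pearson's r of log2 CPM between these 4 ranged from 0.86 to 0.97 in 6 pairs, and from 0.80 to 0.96 once the group means were subtracted. The share of pairs of all tested genes with r this high was not counted. Over all 36 pairs r ranged from -0.31 to 0.97 with a median of 0.33, and the median was 0.43 with group means subtracted. Against the mean standardised profile of the 9, IFIT3 and ISG15 had r = 0.92 each and IRF9 0.07. Each gene is itself part of that profile, which raises its r, so these values cannot be set beside those of genes outside the 9. Without cardiac replicate 4, over 11 libraries, the 6 pairs ranged from 0.88 to 0.98, and from 0.74 to 0.94 with group means subtracted. Over all 36 pairs r then ranged from -0.64 to 0.98 with a median of 0.11. Monoculture replicate 3 was the highest monoculture library for 6 of 9 genes, and the share over all tested genes was not counted.

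**Figure D3:**
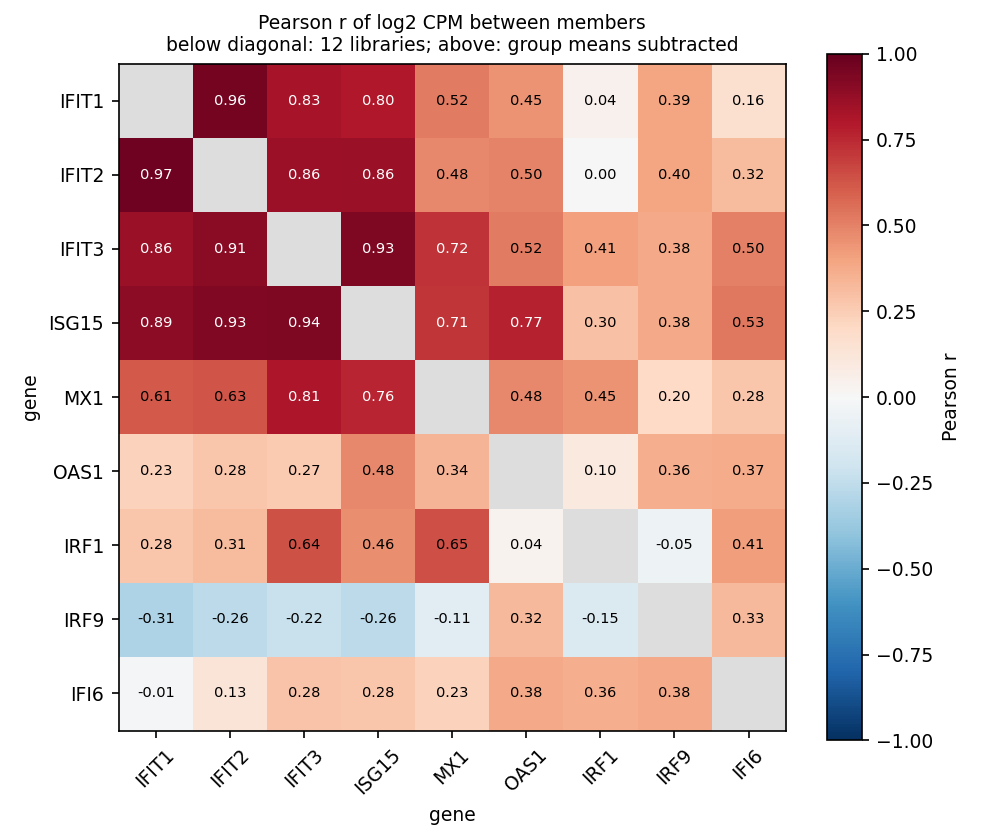
Pearson's r of log2 CPM between each pair of the 9 genes, over 12 libraries below the diagonal and with group means subtracted above it. IFIT1, IFIT2, IFIT3 and ISG15 form a block of high r, from 0.86 to 0.97 over 12 libraries.

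Among 11616 protein-coding genes outside the 9, the 8 whose log2 CPM most resembled their mean profile over 12 libraries were RFC2, TRAIP, COMMD4, RMI1, PTGES, WDR76, MCM7 and SH2B3, with r from 0.92 to 0.94. In all, 31 genes exceeded r = 0.9. RFC2 encodes a subunit of the replication clamp loader, MCM7 a subunit of the replicative helicase and SH2B3 an adaptor of cytokine receptors. With group means subtracted the first 8 were RFC2, SAMHD1, PSME3, CHAF1B, PTDSS1, HERC5, PPM1G and SMC1A, of which 1 (RFC2) was in both sets. The choice of genes changed without cardiac replicate 4, the only library left out of this ranking. Without it, over 11 libraries, the first 8 were KIF1BP, SLC38A4, PIGX, BYSL, TAF5, ATP1B3, TOMM40 and CENPM (r from 0.96 to 0.98), which include 0 of the 8 found over 12 libraries. Those 8 then had r from 0.84 (TRAIP) to 0.95 (RFC2), at places 674 and 18 of the order. Many genes lay close together there, and SH2B3 at place 213 still had r = 0.898.

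The upstream genes of the pathway were read next. Of 21 interferon ligand genes, among them IFNB1, 18 had 0 counts in all 12 libraries, where 3 counts, the limit that a count of 0 allows, correspond to 0.0707 to 0.114 CPM depending on the library. IFNL1 had 0 to 2 counts in hepatic, 0 to 16 in cardiac and 0 to 5 in monoculture libraries, the 16 in cardiac replicate 3. IFNL2 and IFNL3 had at most 2 and 6 counts. None of the 21 passed the low-count filter, so no ligand was tested.

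The lists that follow are read against the shares of all tested genes, which in the hepatic co-culture against monoculture were 13.6% lower and 14.4% higher, and in the cardiac co-culture 3.33% lower and 4.93% higher. Without cardiac replicate 4, all 11 genes of these lists called in the cardiac co-culture against monoculture were called again in the same direction, with log2 fold changes within 1.36 times. Also called there, but not with all libraries, were DDX58, OAS2, OASL, EIF2AK2, SAMHD1, HERC6, GBP1 and HERC5, all as lower. In that fit 9.16% of all tested genes were called as lower, against 3.33% with all libraries. Of 6 interferon receptor genes 1 fell in the hepatic co-culture against monoculture, near the 13.6% of all genes. IFNAR1, a chain of the type I receptor, had 63.4, 54.4, 58.9 and 59.4 CPM in hepatic libraries, against 73.7, 78.7, 78.7 and 75.1 CPM in monoculture, without overlap (log2 fold change -0.38 ± 0.06, adjusted p = 4.0e-04). Its partner chain IFNAR2 had few assigned counts, 5 to 35 in hepatic and 14 to 25 in monoculture libraries (-0.12 ± 0.50, adjusted p = 0.885). Whether IFNAR2 shares exon bases with other genes was not examined, so these counts may understate its level. In the cardiac co-culture IFNAR1 averaged 70.5 ± 2.00 CPM (-0.12 ± 0.06 against monoculture, adjusted p = 0.259), higher than in the hepatic one (0.26 ± 0.07, adjusted p = 0.0222). That last call was lost without hepatic replicates 2 and 3 and cardiac replicate 2 (adjusted p = 0.0811, 0.0597 and 0.0558).

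Among the JAK-STAT genes, the kinase JAK2 fell in the hepatic co-culture. It averaged 17.6 ± 0.91 CPM in hepatic and 25.6 ± 1.26 CPM in monoculture libraries (-0.54 ± 0.09, adjusted p = 2.8e-04). All hepatic libraries were below all monoculture libraries. STAT2 was higher in the cardiac co-culture, at 89.9 ± 7.30 CPM in cardiac and 74.5 ± 3.17 CPM in monoculture libraries (0.27 ± 0.08, adjusted p = 0.0352). The STAT2 call was lost without cardiac replicates 2 and 3 and without each monoculture replicate in turn (adjusted p up to 0.112).

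Among 6 tested genes of the IRF family outside the 9, IRF7, which drives type I interferon transcription, was the 1 called. It averaged 19.6 ± 1.69 CPM in hepatic, 23.5 ± 3.48 CPM in cardiac and 15.9 ± 1.07 CPM in monoculture libraries. The hepatic difference was 0.30 ± 0.11 with an adjusted p of 0.0497, and 5 of 18 alternative fits called it. That call was lost without hepatic replicates 1 to 3, cardiac replicates 2 and 3, or any monoculture replicate (adjusted p up to 0.131). The cardiac difference was 0.56 ± 0.11 (adjusted p = 0.00845), and 18 of 18 did. Every cardiac and every hepatic library lay above every monoculture library.

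Of 9 tested nucleic acid sensors and kinases, 1 rose and 2 fell in the hepatic co-culture, when 28.0% of all tested genes were called. TMEM173, the adaptor STING, rose in both co-cultures against monoculture (hepatic 0.55 ± 0.09, adjusted p = 2.3e-04, and cardiac 0.42 ± 0.09, adjusted p = 0.0122). TLR3, a receptor for double-stranded RNA, averaged 1.93 ± 0.31 CPM in hepatic, 2.92 ± 0.26 CPM in cardiac and 3.96 ± 0.44 CPM in monoculture libraries, and its hepatic difference was -1.04 ± 0.20 (adjusted p = 7.8e-04). IKBKE, a kinase that activates IRF3 and IRF7, fell in the hepatic co-culture (-0.49 ± 0.11, adjusted p = 0.00413) and was higher in the cardiac than in the hepatic one (0.59 ± 0.12, adjusted p = 0.00374). CGAS, the DNA sensor upstream of STING, averaged 47.5 CPM in cardiac and 56.8 CPM in monoculture libraries (-0.26 ± 0.08, adjusted p = 0.0461). That call held in 8 of 18 alternative fits and was lost, among others, without hepatic replicates 2 or 3, cardiac replicates 1, 2 or 3, or monoculture replicates 1, 3 or 4 (adjusted p up to 0.158).

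Other interferon-stimulated genes moved in both directions. Of 29 tested in the hepatic co-culture, 5 rose, 10 fell and 14 did not pass, with a median of -0.22, against 0.01 over all genes, of which 14.4% rose and 13.6% fell. The 5 that rose were IFITM1, IFITM2 and IFITM3, membrane proteins that block virus entry, LGALS3BP, a secreted galectin-binding glycoprotein, and IFI16, a DNA sensor. IFITM1 had 34.6, 25.1, 25.6 and 19.0 CPM in hepatic libraries, 15.6, 17.4, 12.5 and 9.50 CPM in cardiac libraries, and 6.09, 7.89, 4.55 and 8.61 CPM in monoculture. The 3 groups did not overlap, with the hepatic highest and monoculture lowest. The hepatic difference was 1.95 ± 0.24 (adjusted p = 1.0e-04) and the cardiac difference 1.02 ± 0.24 (adjusted p = 0.0252), and the cardiac level was below the hepatic one (-0.93 ± 0.23, adjusted p = 0.0324). The cardiac call was lost without cardiac replicates 1, 2 or 3 or monoculture replicates 1 or 3 (adjusted p up to 0.0795). The difference between the co-cultures was lost without hepatic replicates 1, 2 or 3 or cardiac replicates 3 or 4 (adjusted p up to 0.0926). The 3 IFITM genes are close paralogs, and the handling of multi-mapping reads in the counting is not stated.

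The 10 that fell included PARP14, an ADP-ribosyltransferase, which averaged 58.7 CPM in hepatic and 77.3 CPM in monoculture libraries (-0.40 ± 0.08, adjusted p = 0.00123), and EIF2AK2, the kinase PKR (-0.33 ± 0.07, adjusted p = 0.00141). SAMHD1, a dNTP hydrolase named after its values were seen, had 40.4, 57.3, 48.1 and 52.1 CPM in hepatic libraries, against 101, 95.6, 120.2 and 116 CPM in monoculture (-1.13 ± 0.23, adjusted p = 0.00498). Its cardiac libraries had 55.1, 56.0, 64.5 and 114 CPM, so that replicate 4 again lay with monoculture (-0.58 ± 0.23, adjusted p = 0.139, and -0.89 with an adjusted p of 1.2e-04 without it). OAS2, a second oligoadenylate synthase also named after its values were seen, fell by 1.23 on the log2 scale in the hepatic co-culture (SE 0.30, adjusted p = 0.0105).

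In the cardiac co-culture 5 of the 29 rose, 1 fell and 23 did not pass, against 4.93% and 3.33% of all tested genes, with a median of 0.03. The 5 were the same genes that rose in the hepatic co-culture, a comparison that shares the monoculture libraries. LGALS3BP rose by 0.57 ± 0.11 (adjusted p = 0.00841), IFITM3 by 0.51 ± 0.11 (adjusted p = 0.0122) and IFITM2 by 0.72 ± 0.15 (adjusted p = 0.0172). IFI16 rose by 0.34 ± 0.08 (adjusted p = 0.0186), lost without cardiac replicates 1, 2 or 3 or monoculture replicate 3 (adjusted p up to 0.0735). The IFITM2 call was lost without cardiac replicate 1 or monoculture replicates 1 or 3 (adjusted p up to 0.0613). IFI44, named after its values were seen, fell by 0.57 on the log2 scale (SE 0.16, adjusted p = 0.0462), a call lost without hepatic replicates 3 or 4, cardiac replicates 1, 2 or 3, or any monoculture replicate (adjusted p up to 0.136). Without cardiac replicate 4 the counts were 5 higher and 6 lower, against 9.90% and 9.16% of all tested genes in that fit, with a median of -0.09.

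**Figure D4:**
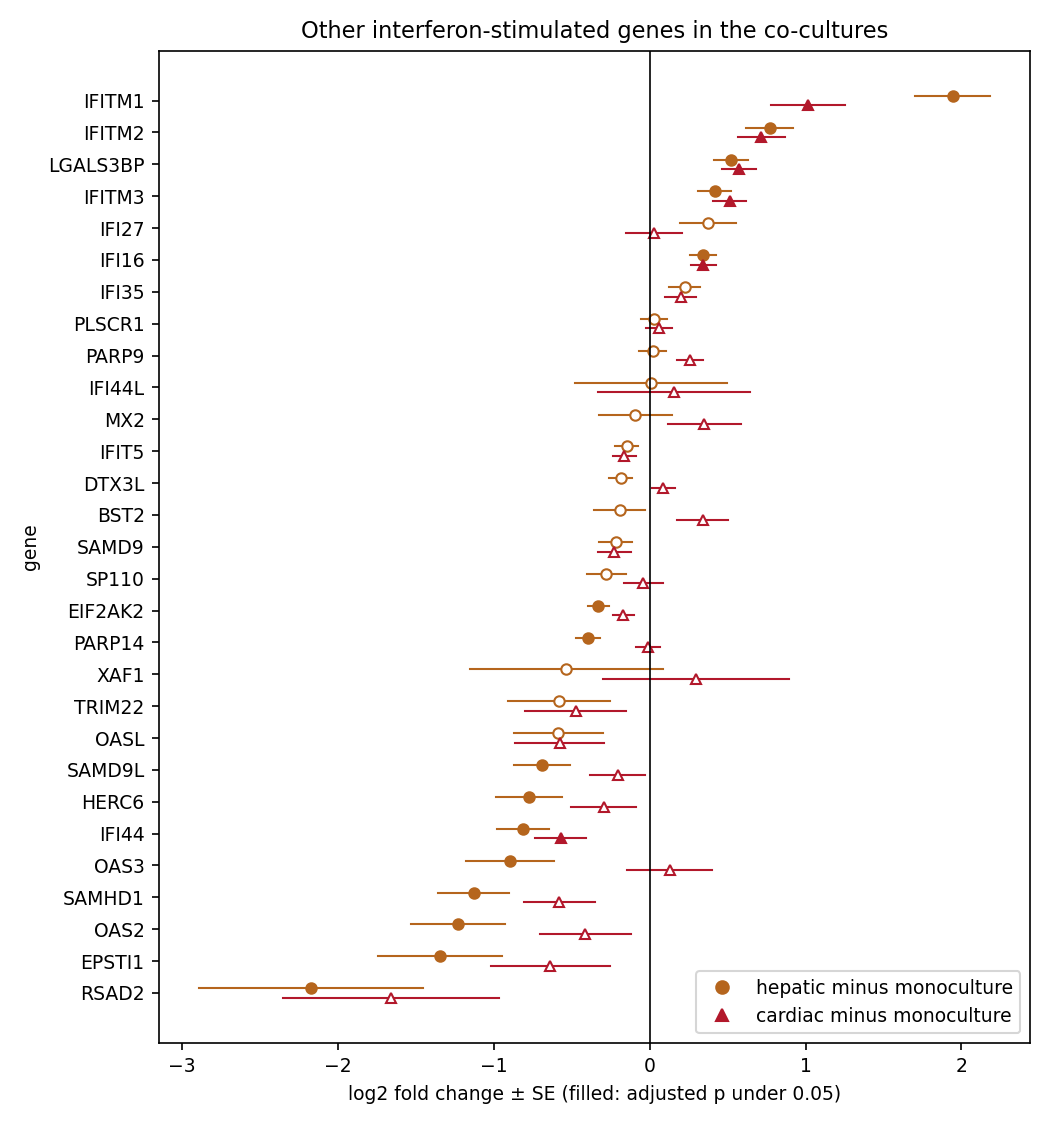
Log2 fold changes ± SE of the 29 tested interferon-stimulated genes outside the 9, in hepatic (circles) and cardiac (triangles) co-culture against monoculture, ordered by the hepatic value; filled symbols passed an adjusted p of 0.05. IFITM1, at 1.95 hepatic and 1.02 cardiac, is the highest in both, and the filled symbols at the lower end are hepatic apart from IFI44.

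Of 8 tested genes that respond mainly to interferon gamma, 1 rose and 2 fell in the hepatic co-culture, against 14.4% and 13.6% of all tested genes. GBP2, a guanylate-binding protein, had 122, 133, 148 and 132 CPM in hepatic libraries, against 80.3, 81.7, 84.2 and 83.5 CPM in monoculture (0.70 ± 0.08, adjusted p = 1.2e-05). Its relative GBP1 moved the other way (-0.66 ± 0.17, adjusted p = 0.00959). CXCL11, a chemokine that attracts T cells, had 6, 17, 10 and 0 counts in hepatic libraries, against 43, 51, 73 and 45 in monoculture (-2.43 ± 0.54, adjusted p = 0.00270). In the cardiac co-culture GBP2 rose by 0.31 ± 0.08 against monoculture (adjusted p = 0.0306), a call lost without any 1 of cardiac replicates 1 to 3 or of the monoculture replicates (adjusted p up to 0.109).

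Of 4 genes of ISG15 conjugation and of 6 negative regulators of JAK-STAT signalling, 1 each fell in the hepatic co-culture, against 13.6% of all tested genes. UBA7, the enzyme that activates ISG15, averaged 8.38 CPM in hepatic and 11.7 CPM in monoculture libraries (-0.48 ± 0.17, adjusted p = 0.0443, lost without hepatic replicates 2, 3 or 4, cardiac replicate 3 or monoculture replicates 1, 3 or 4, adjusted p up to 0.135). PTPN2, a phosphatase that acts on JAK and STAT proteins, averaged 35.8 CPM in hepatic and 45.7 CPM in monoculture libraries (-0.35 ± 0.09, adjusted p = 0.00953). No gene of either list passed in the cardiac co-culture against monoculture (at an unadjusted p under 0.05, 1 lower and 1 higher of the first list and 0 lower and 1 higher of the second, when 11.9% and 13.8% of all tested genes were lower and higher at that threshold). Without cardiac replicate 4, HERC5, a ligase for ISG15 named after its values were seen, was called as lower (-0.86 ± 0.12, adjusted p = 2.2e-04).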

How the data were processed

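RNA-seq counts of 12 libraries in 3 groups of 4 were used as the authors deposited them: raw counts of reads per gene, not normalized. Per the submitters' processing notes, build GRCh38 was used with HISAT2 2.2.1, featureCounts 2.0.6 and DESeq2 1.42.0. Not given in the sources used here are the annotation release, the strandedness of the counting and its handling of multi-mapping reads. Per the labels, protocols exist for both a stranded and an unstranded kit, with no statement of which applied, so reads of a gene and an overlapping or antisense neighbour may be mixed. Symbols, positions and exon lengths come from GENCODE 29.

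Genes were filtered with filterByExpr and TMM-scaled, and group differences came from the robust quasi-likelihood test of edgeR 4.0.16 under R 4.3.3, with all 12 libraries in 1 model and group as its factor. Tests were two-sided, with Benjamini-Hochberg adjustment over 17468 genes and a threshold of 0.05. Levels are TMM-scaled CPM, TPM uses merged exon length, and correlations use log2 CPM with a prior count of 2. The fit was tested on simulated data. The alternatives tried were each library omitted in turn, a replicate block, the 8 libraries of a comparison alone, omission of the low-count filter, scaling by upper quartile or by DESeq2's size factors, and the Wald test of DESeq2 1.42.0.

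The text names all 9 members, up to 4 called genes with the smallest adjusted p per list and comparison, STAT2, IFNB1, IFNL1, IFNAR1, IFNAR2 and IRF7, the 8 genes most like the members, and others where stated. Members and lists were chosen with earlier results of these data known. Some results are not reported here.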

Additional observations from a re-analysis of the deposited data

Results flagged for a closer look

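IFIT3 in cardiac replicate 4, at 182 CPM, stood far from the other 3 cardiac libraries: the gap to its nearest neighbour was 0.848 of the group's whole range, above the critical value of 0.829 for 4 samples. It was 1 of 27 groups examined (9 genes in 3 groups), and chance sets apart about 1 in 20 such groups.

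For 10 of 73 other tested genes of the interferon lists, when 6.18% of all tested genes were called, the 2 co-cultures differed in their effect against monoculture, by the direct test of cardiac minus hepatic co-culture with edgeR. Higher in the cardiac co-culture on the log2 scale were CXCL11 by 1.87 (adjusted p = 0.0473), UBA7 by 0.62 (0.0402), IKBKE by 0.59 (0.00374), PARP14 by 0.39 (0.00559), JAK2 by 0.38 (0.0151), PTPN2 by 0.34 (0.0405), DTX3L by 0.27 (0.0336) and IFNAR1 by 0.26 (0.0222). Lower in the cardiac co-culture were IFITM1 at -0.93 (adjusted p = 0.0324) and GBP2 at -0.39 (0.00749). Of these, IKBKE, PARP14 and GBP2 were called in 18 of 18 alternative fits, JAK2 in 16, IFITM1 and IFNAR1 in 13, UBA7 in 11, DTX3L in 10, PTPN2 in 7 and CXCL11 in 6. Without cardiac replicate 4, 5 of the 10 were called again, and the calls of UBA7 (0.38, adjusted p = 0.139), CXCL11 (1.53, 0.144), DTX3L (0.24, 0.0699), PTPN2 (0.34, 0.0623) and IFITM1 (-0.78, 0.0607) were lost.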

How the results depend on the processing

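No fold change of the 9 members or of the other named genes that was called changed sign under any alternative run. Of the 9 members in hepatic co-culture against monoculture, 1 was called with no low-count filter and 4 in the fit of only the 8 libraries, against 2 with all libraries. Leaving out 1 library gave 0 to 4, with 0 without hepatic replicate 3 or monoculture replicate 3 and 4 without cardiac replicate 4. In cardiac co-culture against monoculture DESeq2 called 2 members, against 0, and leaving out 1 library gave 0 to 4. In cardiac against hepatic co-culture 1 was called with no filter (IRF1), against 0, and leaving out 1 library gave 0 each time. Over all genes, cardiac co-culture against monoculture had 1443 calls, 2219 with no filter, 2237 by DESeq2 and 263 to 3378 with 1 library left out, the lowest without cardiac replicate 2 and the highest without cardiac replicate 4. The share of these calls that were higher was 72.2% under upper-quartile scaling, against 59.7%. With 1 library left out, hepatic co-culture against monoculture had 3660 to 5529 calls (4892 with all) and cardiac against hepatic 676 to 1269 (1080 with all). The cause was not tested. Same-numbered libraries did not deviate together (correlations of -0.08 to 0.11). These are the series' replicate numbers, which are not always those in the library names. The check therefore cannot show whether libraries of different groups shared a culture or day. A replicate block gave 4660, 1310 and 891 calls in the 3 comparisons and 2, 0 and 0 members. The results of IRF9, IFNAR2, CXCL11 and the ligands are limited by few counts. Exon bases shared with other genes were examined only for the 9 members, and for IRF9 they were 48.4%.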
